A study of Mus musculus with 12 samples.

Results

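Nitric oxide and cGMP signalling was described through 8 genes, the endothelial nitric oxide synthase Nos3, the cyclase subunits Gucy1a1 and Gucy1b1, the cGMP kinase Prkg1, the phosphodiesterases Pde5a and Pde3a, and the natriuretic peptide receptors Npr1 and Npr3. They were chosen by name, with earlier results of these data known, and all 8 were found among the 30130 genes of the table. Endothelial cells make nitric oxide, which diffuses into smooth muscle and switches on a soluble guanylate cyclase. Natriuretic peptides reach the same second messenger through a membrane cyclase. In the arterial wall cGMP acts through its kinase to lower calcium and relax the muscle, and phosphodiesterases end the signal.

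Poly(A) RNA was sequenced from frozen and ground proximal thoracic aorta of male mice, with the strain given as C56BL/6J in the labels. The 7 aneurysm libraries (cPTAA 2, 3, 4, 6, 7, 9 and 12) came from animals given elastase around the aorta, which digests elastic fibres, and BAPN, which blocks lysyl oxidases. The 5 control libraries (titled NC in the labels and called sham 1, 5, 8, 10 and 11 here) came from animals with sham surgery and normal water. Elastase, BAPN and the operation can be compared with sham only as 1 condition, and neither age nor pooling was given in the sources used here. The labels number samples and name no animals, and the p-values below therefore reflect variation among samples, which may be technical.

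Libraries held 14078885 to 17493428 reads. The smooth muscle markers Acta2 and Myh11 and the endothelial markers Pecam1 and Cdh5 were abundant in every library, as the tissue label implies. Markers of other cell types were also detected, and several of these lists differed between the groups. For scale, 11.1% of all tested genes fell and 12.9% rose in the limma test described below. All 9 brown adipocyte markers fell, with a summed level of 1817 to 45352 in cPTAA against 34275 to 108556 in sham, and 4 of 7 white adipocyte markers fell. All 9 macrophage markers rose, from 3090.5 to 8086 in sham to 16715 to 33038 in cPTAA. Of 7 fibroblast markers 4 rose (Col1a1, Dcn, Lum and Mfap5) and 3 did not pass. Their summed levels were 53074 to 107617 in cPTAA against 24497 to 43626 in sham. Cardiomyocyte markers summed to 14378, 18379 and 87539 in cPTAA 6, 7 and 9, against 1420 to 1931 in the other cPTAA libraries and 1738 to 4743 in sham. Myh6, Tnnt2 and Tnni3 made up most of these 3 high sums, and 0 of the 7 cardiomyocyte markers passed limma between the groups. As a mean log2 score over the 7 markers, cPTAA 7 and 9 were above sham (9.68 and 10.2 against 7.07 to 9.01) and cPTAA 6 was inside the sham range (8.04), with Myl7 at 9.86 against 45.8 to 369 in sham. None of the markers in these lists was at 0 in all libraries.

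Of the 8 genes, 6 fell (75%), 1 rose (12.5%) and 1 did not pass the test. Of all tested genes, 11.1% fell and 12.9% rose, 23.9% in either direction. The 8 genes were chosen with earlier results of these data known, so these shares are descriptions only. Pde5a, Pde3a and Npr1 were each about 2.0-fold lower in cPTAA (2.02, 2.03 and 1.95-fold), Gucy1b1 was 1.80-fold lower, and Npr3 was 4.05-fold higher. Gucy1a1 and Nos3 were 1.84-fold and 1.49-fold lower with less certainty, and Prkg1 was 1.39-fold lower without passing. Folds come from log2(normalised read count + 1). The test was limma over 21415 genes, adjusted by the Benjamini-Hochberg method and called under 0.05. The median log2 fold change was -0.86 over the 8 genes and -0.05 over all tested genes. In whole tissue, fewer cells of a type and less RNA per cell cannot be told apart.

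**Figure D1:**
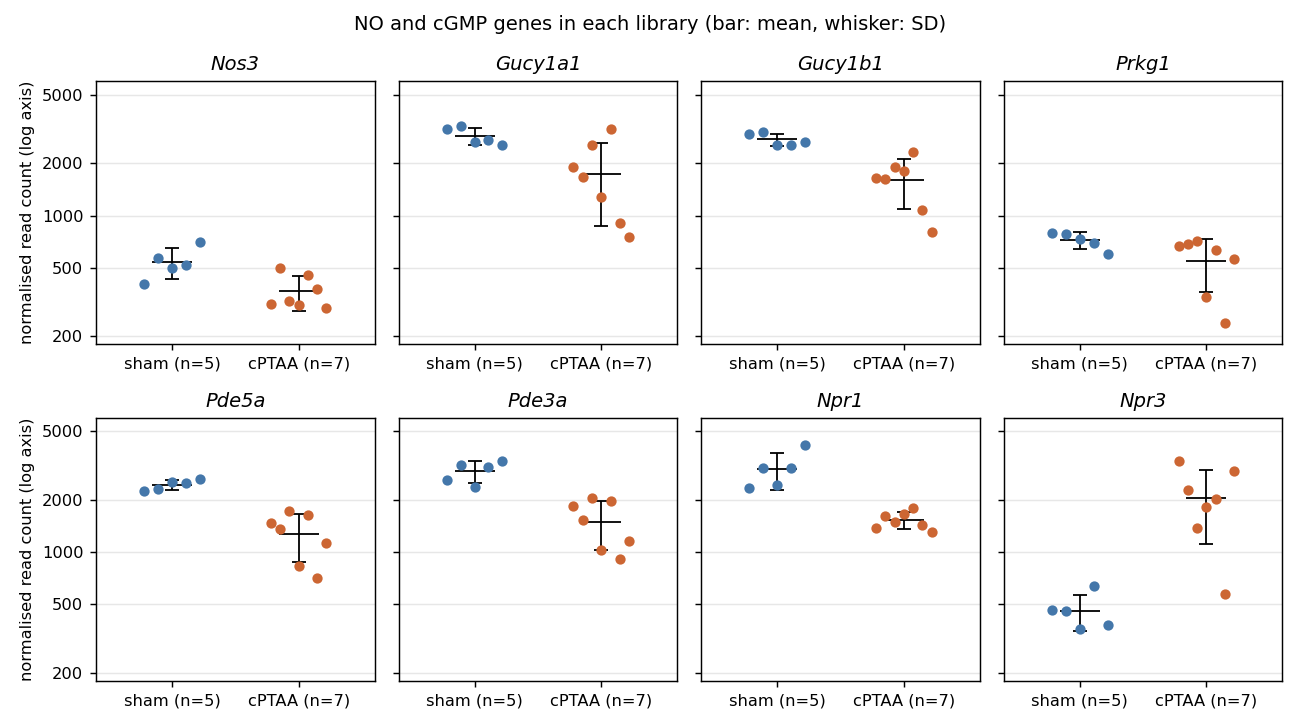
Normalised read counts of the 8 genes on a log axis, with 1 point per library, for 5 sham (blue) and 7 cPTAA libraries (orange); bars are means and whiskers SD. The groups do not overlap for Gucy1b1, Pde5a, Pde3a and Npr1, and Npr3 overlaps only through cPTAA 9.

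Nos3, the enzyme that makes nitric oxide in endothelium, was lower in the aneurysms. Sham values were 404, 569, 499, 519 and 705 normalised read counts in sham 1, 5, 8, 10 and 11, and cPTAA values ran from 292 through a median of 321 to 499.8. The groups overlapped: 5 of 7 cPTAA libraries lay below the lowest sham library, and cPTAA 3 and 7 lay inside the sham range. The log2 fold change was -0.57 ± 0.17 (SE, adjusted p = 0.0268). The call was lost without cPTAA 2, sham 5, sham 10 or sham 11 (adjusted p up to 0.0841) and with library totals as the only scaling (adjusted p = 0.0929). Endothelial markers fell in part beside it. By limma 5 of 12 fell (Pecam1, Tek, Tie1, Kdr and Esam) and 7 did not pass, while 11.1% of all tested genes fell. The 12 markers had summed levels of 10591 to 16575 in cPTAA against 13898 to 20746 in sham. The list was mixed in direction: Erg and Emcn were at 1287 ± 402 and 646 ± 186 (SD, n = 7) against 908 ± 65.1 and 449.9 ± 64.1 (SD, n = 5) without passing limma (adjusted p = 0.19 and 0.0782), and voom called 1 endothelial marker higher. The part of these markers in the lower Nos3 was not tested.

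The receptor for nitric oxide is a heterodimer of the alpha subunit Gucy1a1 and the beta subunit Gucy1b1, whose beta chain holds the haem. Gucy1b1 was at 2958, 3034, 2567, 2558 and 2668 in sham 1, 5, 8, 10 and 11 and between 807 and 2329 in cPTAA (median 1659). Every cPTAA library was below every sham library, which held for 4.95% of tested genes; groups that did not overlap in either direction made up 13% of them. Its log2 fold change was -0.85 ± 0.22 (adjusted p = 0.0109). Gucy1a1 was at 3149, 3284, 2668, 2730.2 and 2572 in the same sham libraries and between 752 and 3177 in cPTAA (median 1660.2). Here 6 of 7 cPTAA libraries were below the sham range and cPTAA 7 was inside it. The log2 fold change was -0.88 ± 0.30 (adjusted p = 0.0471). The call for Gucy1a1 was kept in 6 of 22 alternative settings. It was lost by edgeR (a log2 fold change of -0.74, adjusted p = 0.0822) and DESeq2 (-0.72, adjusted p = 0.0675), and without any one of cPTAA 2, 3, 6, 9 and 12 or any one sham library (adjusted p up to 0.0976).

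The balance of the subunits did not shift detectably. The ratio of Gucy1a1 to Gucy1b1 normalised read counts, not divided by length, was 0.964 to 1.08 in sham and 0.711 to 1.36 in cPTAA. On the log2 scale it was 0.06 ± 0.07 (SD, n = 5) in sham and 0.03 ± 0.35 (SD, n = 7) in cPTAA, a difference of -0.03 (two-sided exact permutation test, p = 0.864, and 0.864 adjusted over the 2 ratios tested). The spread was wider in the aneurysms. In cPTAA 4 and 7 the Gucy1a1 count was the higher one (1.33 and 1.36), and in cPTAA 6 and 9 the Gucy1b1 count was (0.711 and 0.834). Longer genes collect more reads, and the merged exons span 6968 bases for Gucy1a1 and 3927 for Gucy1b1. These count ratios therefore do not show which subunit had more RNA.

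In the RefSeq annotation of GRCm38.p6, Gucy1a1 and Gucy1b1 are neighbouring protein-coding genes on chromosome 3 and read from the same strand. Their promoters are shown because the subunits fell together and belong to 1 enzyme. Each window covers 250 bases before to 50 after the RefSeq start, from the GRCm38.p6 table. Capitals mark matches on either strand to 5 motifs that were searched. The GC box GGGCGG is held by 35.7% of all 32851 promoter windows of this length. The CCAAT box, which reads ATTGG on the other strand, is held by 37.4%, the TATA box TATAAA by 13.6%, the cyclic AMP response element TGACGTCA by 1.79% and the CArG box by 1.63%. No marked match overlaps another in these windows.
Gucy1a1 (first of 2 starts, chr3:82145601-82145900, minus strand): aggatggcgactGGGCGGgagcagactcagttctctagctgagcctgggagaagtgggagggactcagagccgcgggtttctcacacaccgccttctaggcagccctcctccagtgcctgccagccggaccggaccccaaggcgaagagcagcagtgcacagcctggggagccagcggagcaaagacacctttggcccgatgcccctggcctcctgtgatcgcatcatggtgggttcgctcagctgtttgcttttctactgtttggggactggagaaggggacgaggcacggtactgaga
Gucy1b1 (chr3:82074662-82074961, minus strand): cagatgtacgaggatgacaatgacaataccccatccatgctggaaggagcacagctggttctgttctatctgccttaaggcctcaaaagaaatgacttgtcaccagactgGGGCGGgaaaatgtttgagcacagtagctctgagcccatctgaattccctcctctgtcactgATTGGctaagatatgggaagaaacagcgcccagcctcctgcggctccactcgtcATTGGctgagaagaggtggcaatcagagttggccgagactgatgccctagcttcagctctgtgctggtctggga
The Gucy1a1 window holds 1 GGGCGG. The Gucy1b1 window holds 1 GGGCGG and 2 CCAAT matches, both on the other strand. The second Gucy1a1 start holds none of the 5 motifs. A match is a description of the letters only.

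Prkg1, the kinase that cGMP switches on in smooth muscle, did not pass the test. It was at 794, 785, 727, 690.1 and 597 in sham 1, 5, 8, 10 and 11, and between 239 and 715 in cPTAA (median 628). Only 3 of 7 cPTAA libraries were below the sham range (cPTAA 6, 9 and 12), and the other 4 were inside it. The log2 fold change was -0.48 ± 0.25 (95% interval -1.01 to 0.06, adjusted p = 0.186). It stayed on the same side of the threshold in 22 of 22 alternatives. Without cPTAA 6, 7 and 9 and sham 8 its log2 fold change was -0.12 (adjusted p = 0.515).

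The phosphodiesterases fell by similar amounts. Pde5a, which breaks down cGMP and is the target of sildenafil, was at 2255, 2306, 2556, 2521 and 2647 in sham 1, 5, 8, 10 and 11, and between 705 and 1741 in cPTAA (median 1363). Pde3a, which breaks down cAMP and is inhibited by cGMP, was at 2635, 3189, 2376, 3127 and 3366, and between 916 and 2048 in cPTAA (median 1531). For these genes every cPTAA library was below every sham library (as in 4.95% of tested genes), and cPTAA 6 and 9 were the lowest. The log2 fold changes were -1.02 ± 0.21 (adjusted p = 0.00251) for Pde5a and -1.02 ± 0.21 (adjusted p = 0.00251) for Pde3a. Each passed in 21 of 22 alternatives. The promoter of Pde5a (chr3:122728908-122729207, plus strand, GRCm38.p6) is shown with the same marking, as the non-subunit gene that fell most among those with a window in the table.
Pde5a: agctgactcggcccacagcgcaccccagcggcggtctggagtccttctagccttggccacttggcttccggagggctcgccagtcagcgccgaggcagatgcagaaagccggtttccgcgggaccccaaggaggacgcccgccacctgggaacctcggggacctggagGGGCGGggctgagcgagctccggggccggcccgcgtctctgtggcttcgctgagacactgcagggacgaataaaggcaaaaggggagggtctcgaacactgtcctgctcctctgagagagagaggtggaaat
It holds 1 GGGCGG and no match to the other 4 motifs.

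The receptors for atrial and B-type natriuretic peptides moved in opposite directions. Npr1 carries the guanylate cyclase that makes cGMP. It was at 2360.5, 3083, 2454, 3066 and 4195 in sham 1, 5, 8, 10 and 11, and between 1312 and 1792 in cPTAA (median 1496). The cPTAA values were close together, with a coefficient of variation of 11%, against 24.1% in sham. None reached the lowest sham value, as in 4.95% of tested genes. Its log2 fold change was -0.96 ± 0.15 (adjusted p = 0.000285). Npr3, which has no cyclase and takes the peptides up for breakdown, was at 463, 455, 362, 636 and 381 in the same sham libraries. In cPTAA it ran from 576 through a median of 2029 to 3383, and 6 of 7 libraries were above the sham range. The exception was cPTAA 9, at 576 and below sham 10. The log2 fold change was 2.02 ± 0.35 (adjusted p = 0.000639), and it ranged from 1.87 to 2.30 when each library was left out in turn.

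The ratio of Npr3 to Npr1 separated the groups without overlap. As a ratio of normalised read counts, not divided by length, it was 0.196, 0.148, 0.148, 0.208 and 0.0909 in sham 1, 5, 8, 10 and 11. In cPTAA it was 2.44, 1.42, 0.919, 1.097, 1.13, 0.400 and 2.26 in cPTAA 2, 3, 4, 6, 7, 9 and 12. The mean log2 ratio was 0.26 ± 0.88 (SD, n = 7) in cPTAA and -2.72 ± 0.47 (SD, n = 5) in sham, a 7.896-fold difference. The two-sided exact permutation test gave p = 0.00126, the smallest that the 792 splits of these libraries can give, and 0.00253 adjusted over the 2 ratios. Both genes were chosen with earlier results of these data known. Npr1 alone separated the groups, and Npr3 moved the other way and overlapped only through cPTAA 9. The ratio therefore largely restates the results of the single genes and is no separate support. The window at the Npr3 start (chr15:11907322-11907621, minus strand, GRCm38.p6) is shown because Npr3 was the gene that rose.
Npr3: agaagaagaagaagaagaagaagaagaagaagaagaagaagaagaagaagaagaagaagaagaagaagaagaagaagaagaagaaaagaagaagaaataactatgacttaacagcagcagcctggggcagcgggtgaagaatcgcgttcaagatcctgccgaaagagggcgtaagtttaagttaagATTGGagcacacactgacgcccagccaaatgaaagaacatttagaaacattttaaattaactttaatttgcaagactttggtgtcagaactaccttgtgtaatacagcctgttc
It holds 1 CCAAT match, on the other strand, and has a GC share of 39%. The Gucy1a1, Gucy1b1 and Pde5a windows above have 62.3%, 52.3% and 66.3%.

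**Figure D2:**
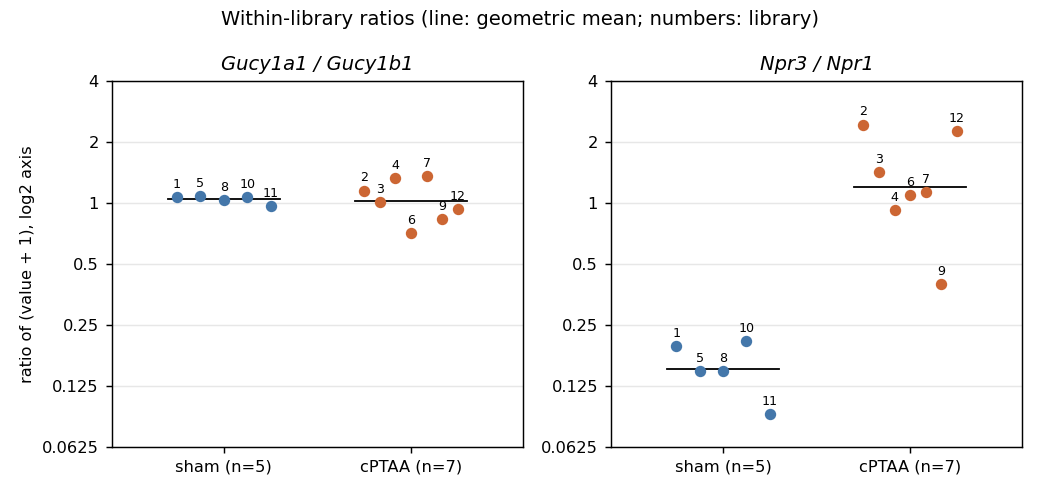
Ratios of normalised read counts (each + 1) within a library, on a log2 axis, with 1 numbered point per library and lines at geometric means. The Gucy1a1 to Gucy1b1 ratio of cPTAA spreads around the sham values, and all 7 Npr3 to Npr1 ratios of cPTAA (0.400 to 2.44) lie above the sham range (0.0909 to 0.208).

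Divided by exon length, the order of the mean levels differed between the groups only in the place of Npr3. Lengths are merged exons of GENCODE M21 and the unit is normalised read counts per kb, so long annotated untranslated regions lower a value. In sham the order was Gucy1b1 (702 ± 57.1, SD, n = 5), Npr1 (634 ± 153), Gucy1a1 (413 ± 45.3), Pde5a (249.9 ± 17.1), Pde3a (231 ± 32.6), Nos3 (130.5 ± 26.7), Prkg1 (66.2 ± 7.38) and Npr3 (48.9 ± 11.5). The sham ranges overlapped within 3 pairs of neighbours, Gucy1b1 with Npr1, Pde5a with Pde3a, and Prkg1 with Npr3. In cPTAA Npr3 stood at 219.8 ± 100.6 (SD, n = 7) and came after Gucy1b1 (409 ± 131), Npr1 (319.7 ± 35.2) and Gucy1a1 (251 ± 126). Below it were Pde5a (129 ± 40.4), Pde3a (118 ± 36.9), Nos3 (88.03 ± 19.8) and Prkg1 (50.4 ± 17.1). Among cPTAA neighbours only Nos3 and Prkg1 had ranges that did not overlap.

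The aneurysm libraries were uneven. In cPTAA 6, 9 and 12, 7 of the 8 genes lay below the sham range, against 6 in cPTAA 2 and 4, 5 in cPTAA 3 and 4 in cPTAA 7. The share of all tested genes below the sham range was not measured for single libraries. Whether these counts are particular to the 8 genes was therefore not tested. The subunits Gucy1a1 and Gucy1b1 were lowest in cPTAA 12, which also had the lowest smooth muscle score of all libraries (mean log2 level of 10 markers, 10.9 against 11.7 to 12.7 in the other cPTAA libraries and 12.7 to 12.99 in sham). Prkg1, Pde5a and Pde3a were lowest in cPTAA 9 and 6, which with cPTAA 7 had the highest summed levels of cardiomyocyte markers. Npr3 was highest in cPTAA 2 and 12. The part of these markers in the results was not tested. Without cPTAA 6, 7 and 9 and sham 8, the libraries with the highest cardiomyocyte sums of each group, 6 of the 8 genes fell and 1 rose, the same counts as in all libraries. Over all genes that smaller fit called more: 3481 rose and 3088 fell of 19734, against 2754 and 2374 of 21415 in all libraries.

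**Figure D3:**
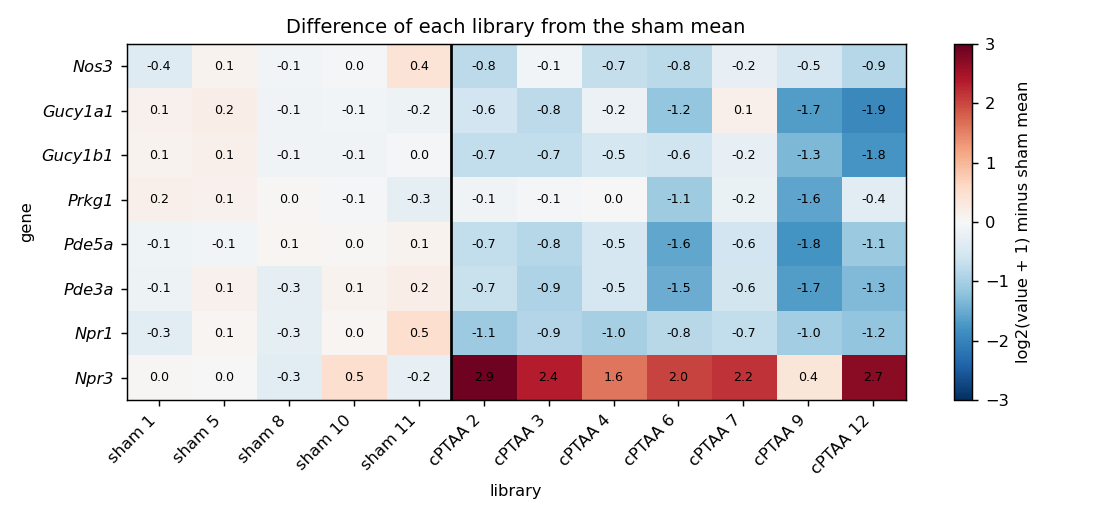
Difference of each library from the sham mean on the log2(value + 1) scale, with genes as rows and libraries as columns; blue is below and red above the sham mean. Npr1 is lower by a similar amount in all 7 cPTAA libraries, and Npr3 is higher in all of them, least in cPTAA 9.

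Smooth muscle markers were in part lower in the aneurysms as well. By limma 5 of 10 fell (Lmod1, Myh11, Mylk, Myocd and Synpo2), against 11.1% of all tested genes. The number that fell was 3 by edgeR, 5 by DESeq2, 7 by voom and 0 with the brown adipocyte score as covariate (described below). The 10 markers had a median log2 fold change of -0.81, with summed levels of 70812 to 273893 in cPTAA against 225181 to 304672 in sham. Myh11, the smooth muscle myosin heavy chain, had a log2 fold change of -1.30 ± 0.38 (adjusted p = 0.0208), while Acta2, smooth muscle actin, was at -0.32 ± 0.42 (adjusted p = 0.627). Tagln was at 0.13 ± 0.39 (adjusted p = 0.843), with 4 of 7 cPTAA libraries above the sham range and 3 below it. Des was at 2729, 2326 and 8053 in cPTAA 6, 7 and 9 and 450 to 703 in the other cPTAA libraries. It was at 9037 in sham 8 and 1203 to 1597 in the other sham libraries. The part of cardiomyocyte RNA in Des was not tested. Because smooth muscle markers differed between the groups, the 8 genes were also measured relative to the smooth muscle score of their own library. That fit covered all 21415 genes. On that scale 33.5% of genes rose and 1.22% fell, and the median gene was at 0.74. Npr3 was the 1 member to pass, at 2.81 ± 0.43 (adjusted p = 3.57e-05). Gucy1a1, Gucy1b1, Pde5a, Pde3a and Npr1 had relative log2 differences of -0.08, -0.06, -0.22, -0.23 and -0.17, and Nos3 and Prkg1 of 0.22 and 0.31 (adjusted p from 0.479 to 0.872). Their intervals were wide, for example -0.64 to 0.47 for Gucy1a1 and -0.83 to 0.39 for Pde5a. Without cPTAA 6, 7 and 9 and sham 8, Prkg1 stood at 0.82 relative to smooth muscle and passed (adjusted p = 0.0378). The median gene and the share of all genes called were not recorded for that smaller fit. Whether this rise was particular to Prkg1 was therefore not tested.

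Relative to the endothelial score, whose markers differed in direction, 18.3% of all genes rose and 4.88% fell, and the median gene was at 0.24. Nos3 had a log2 difference of -0.28 ± 0.19 on that scale (95% interval -0.68 to 0.12, adjusted p = 0.310). Npr1, Pde3a and Pde5a were still lower on that scale, at -0.67 ± 0.18 (adjusted p = 0.0135), -0.73 ± 0.21 (adjusted p = 0.0188) and -0.73 ± 0.21 (adjusted p = 0.0201). Npr3 was higher at 2.31 ± 0.31 (adjusted p = 3.58e-05). Gucy1a1, Gucy1b1 and Prkg1 did not pass (adjusted p = 0.177, 0.113 and 0.603). Leaving out sham 11 ended the relative calls of Pde3a and Npr1 (adjusted p = 0.0516 and 0.0514), and leaving out cPTAA 6, 7 and 9 and sham 8 ended that of Pde5a (adjusted p = 0.0842).

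**Figure D4:**
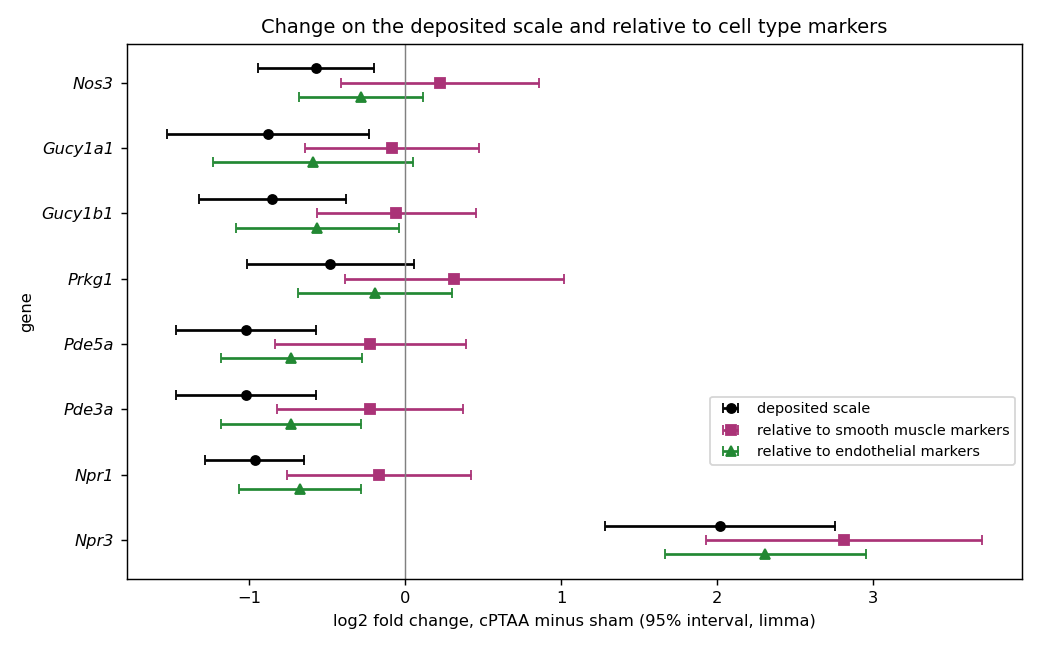
Log2 fold changes of the 8 genes (cPTAA minus sham) with 95% intervals from limma, on the deposited scale (black), relative to smooth muscle markers (purple) and relative to endothelial markers (green). Only Npr3 has intervals that exclude 0 on all 3 scales. On the deposited scale only the interval of Prkg1 includes 0. Relative to endothelial markers, those of Gucy1b1, Pde5a, Pde3a, Npr1 and Npr3 exclude it. The intervals are not adjusted for the number of genes.

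Brown adipocyte RNA differed between the groups, so the brown adipocyte score was also entered as a covariate. In that limma fit 0 of the 8 genes passed after adjustment and 4 were lower at an unadjusted p under 0.05, while 2.28% of all genes rose and 1.02% fell. The differences kept their sign. Pde5a was at -1.20 (adjusted p = 0.0867), Npr1 at -0.70 (adjusted p = 0.12), Pde3a at -0.91 (adjusted p = 0.163) and Npr3 at 1.05 (adjusted p = 0.2499), while Gucy1a1, Gucy1b1 and Nos3 were at -0.33, -0.33 and -0.20 and Prkg1 at -0.94 (adjusted p = 0.196). The scores of the groups did not overlap (6.61 to 10.3 in cPTAA, 10.5 to 12.2 in sham), and the median SE of all genes grew from 0.302 to 0.492. Brown adipocyte RNA and the condition cannot be told apart in this design.

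The wider pathway was read from 58 further genes in 4 lists, all of which passed the filter on low values. Of these 6 rose (10.3%) and 14 fell (24.1%), against 12.9% and 11.1% of all tested genes. The lists too were chosen with earlier results of these data known, and the shares were not tested. Most of the rises were in the list of nitric oxide synthesis, and most of the falls in those of cyclic nucleotide breakdown and of kinase targets. In the limma fit that held the brown adipocyte score, 5 of the 58 fell (Mme, Pde3b, Pde4d, Ppp1r12a and Kcnma1) and the other calls were lost.

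Among 18 genes of nitric oxide synthesis and its substrates, 4 rose and 2 fell. Ddah1, which degrades the methylarginines that inhibit nitric oxide synthases, was at 22.1, 36.04, 46.9, 33.6 and 26.8 in sham 1, 5, 8, 10 and 11 and at 150.005 to 2580 in cPTAA. Every cPTAA library was above every sham library, as in 8.02% of tested genes, and the log2 fold change was 4.51 ± 0.52 (adjusted p = 2.89e-05). Its paralog Ddah2 rose less, by 0.71 ± 0.18 (adjusted p = 0.00892). Ass1, which helps to rebuild arginine from citrulline, was at 242 ± 72.3 (SD, n = 7) against 68.1 ± 14.2 (SD, n = 5), a log2 fold change of 1.78 ± 0.24 (adjusted p = 0.000112). Arg1, an arginase that macrophages can make, was at 71.06 ± 66.1 against 2.42 ± 2.63 (a log2 fold change of 4.31 ± 0.69, adjusted p = 0.000386). All 9 macrophage markers rose beside it, and their part in the rise of Arg1 was not tested. Cav1, the caveolin that binds and restrains the endothelial synthase, fell by 1.08 ± 0.18 on the log2 scale (adjusted p = 0.000512), from 16610 ± 1784 to 7977 ± 1560.4. Pts, an enzyme of tetrahydrobiopterin synthesis, fell by 0.90 ± 0.18 (adjusted p = 0.00195). Cav1 is abundant in adipocytes too. All 9 brown and 4 of 7 white adipocyte markers fell beside it, and their part in the fall of Cav1 was not tested. The other synthases were low: Nos1 was at 5.93 ± 3.60 against 13.9 ± 4.99 (adjusted p = 0.068) and Nos2, the inducible form, at 42.2 ± 9.35 against 55.5 ± 16.4 (adjusted p = 0.325). For Nos1 voom and the fit without cPTAA 9 gave a call (log2 fold changes over alternatives from -1.62 to -0.95).

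Among 11 other cyclases, natriuretic peptides and their proteases, 0 rose and 1 fell by limma. After adjustment edgeR and DESeq2 each called 0 higher and 1 lower too. At an unadjusted p under 0.05 limma found 0 higher and 1 lower, and edgeR and DESeq2 each found 1 higher and 1 lower. The fall was Mme, the neprilysin that degrades natriuretic peptides, at 539.9 ± 167 against 1645 ± 433 (a log2 fold change of -1.63 ± 0.24, adjusted p = 0.000171). Npr2, the receptor of the C-type peptide, was at 1081 ± 228 against 1057 ± 288 (a log2 fold change of 0.05 ± 0.19, 95% interval -0.36 to 0.46), and its sign turned in 6 of 22 settings. Its ligand Nppc was at 4.41 ± 3.97 against 2.71 ± 3.43. Gucy1a2, the other alpha subunit, was at 31.2 ± 13.2 against 25.5 ± 9.89. Nppb, the B-type peptide, was at 117, 113 and 281 in cPTAA 6, 7 and 9, at 25.2 in cPTAA 3 and at 0 in cPTAA 2, 4 and 12, and up to 11.9 in sham (a log2 fold change of 1.86 ± 1.48, adjusted p = 0.403). The 3 highest libraries are those with the highest summed cardiomyocyte marker levels. Nppa, the atrial peptide, was at 34.5 ± 25.7 against 26.97 ± 29.2 (adjusted p = 0.69).

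Among 18 other genes of cyclic nucleotide breakdown and export, 1 rose and 7 fell. Pde3b, the adipocyte form of the cGMP-inhibited enzyme, was at 978 ± 254 against 3177 ± 876 (a log2 fold change of -1.68 ± 0.21, adjusted p = 4.92e-05). Pde4d, which breaks down cAMP only, was at 239.8 ± 52.9 against 953 ± 324 (a log2 fold change of -1.95 ± 0.22, adjusted p = 2.45e-05). Pde4a, Pde4c, Pde7b, Pde8a and the exporter Abcc4 also fell, with log2 fold changes from -1.92 (Pde4c) to -0.59 (Abcc4). Of these, Pde7b did not pass without sham 11, Pde4c without sham 10 or sham 11, and Abcc4 without sham 8, with library totals, or without cPTAA 6, 7 and 9 and sham 8. Pde1b, a calmodulin-dependent enzyme, was the rise, at 307 ± 46.7 against 133.5 ± 10.8 (a log2 fold change of 1.18 ± 0.14, adjusted p = 3.7e-05). Its relative Pde1a was at 549 ± 59.3 against 578 ± 71 (a log2 fold change of -0.07 ± 0.12, 95% interval -0.33 to 0.19), and turned to 0.05 with library totals. Pde9a was at 40.8 ± 17.6 against 53.6 ± 12.4 (adjusted p = 0.324), and Pde2a at 2.33 ± 2.46 against 1.397 ± 3.12.

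Among 11 partners and targets of the kinase, 1 rose and 4 fell. Ppp1r12a, the targeting subunit of myosin phosphatase, was at 2793 ± 782 against 7599 ± 319 (a log2 fold change of -1.49 ± 0.18, adjusted p = 5.01e-05). Kcnma1, the pore of the large-conductance potassium channel, was at 223 ± 98.1 against 562 ± 67.2 (a log2 fold change of -1.46 ± 0.29, adjusted p = 0.00183). Itpr1, the IP3 receptor, and Rgs2, which restrains Gq signalling, had log2 fold changes of -1.05 ± 0.25 and -1.28 ± 0.20 (adjusted p = 0.00764 and 0.000359). In each of these 4 genes, which were picked as the called falls of the list, every cPTAA library was below every sham library. The same held for 4.95% of tested genes. Irag1, which links the kinase to the IP3 receptor, was at 2576 ± 1106 against 3348 ± 113 (a log2 fold change of -0.51 ± 0.28, adjusted p = 0.207). Prkg2, the second kinase gene, rose from 8.42 ± 3.66 to 52.9 ± 55.1 (a log2 fold change of 2.07 ± 0.56, adjusted p = 0.0142), with 5 of 7 cPTAA libraries above the sham range and cPTAA 12 the highest at 167. When the brown adipocyte score was a covariate, its log2 fold change was 0.0029.

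**Figure D5:**
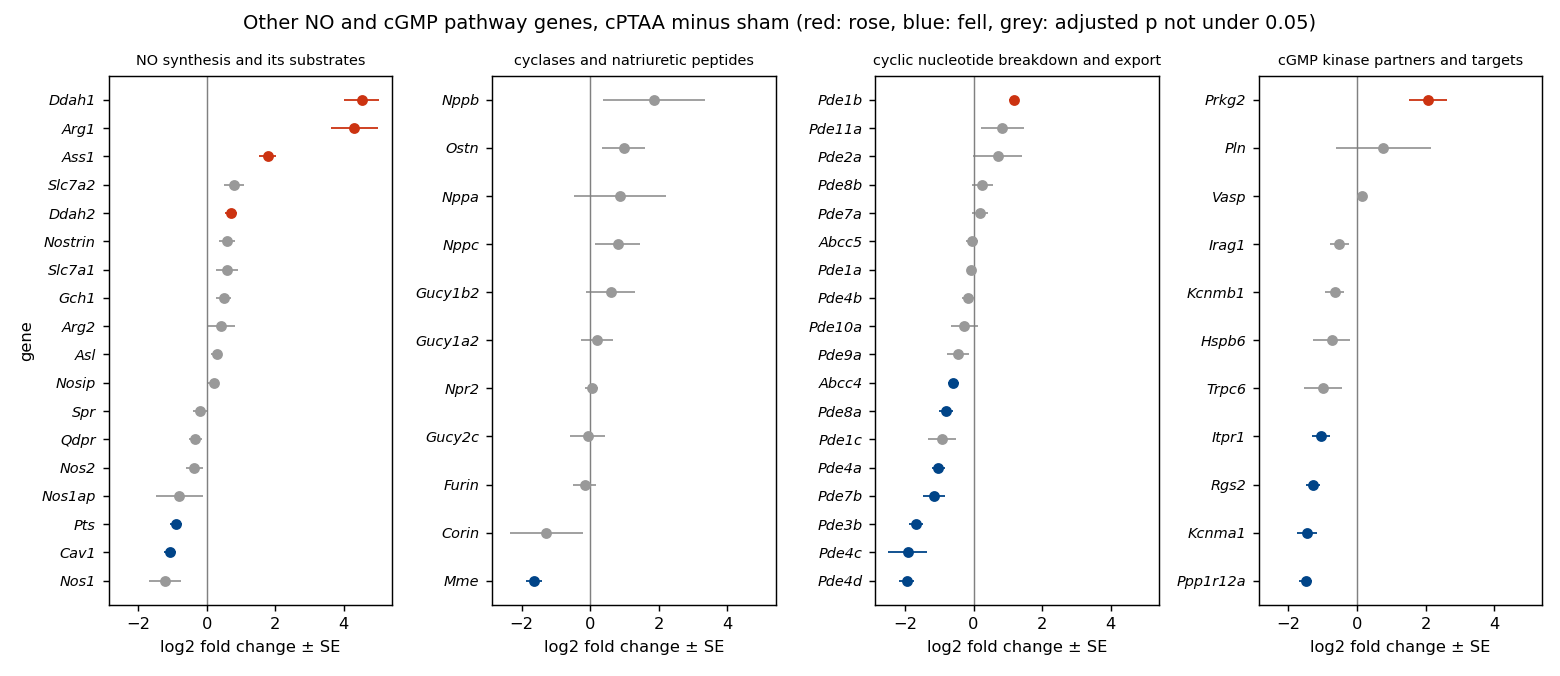
Log2 fold changes (cPTAA minus sham, points) with SE (lines) of 58 other pathway genes in 4 lists; red points rose, blue points fell and grey points did not pass the threshold of 0.05. Rises reach 4.51 (Ddah1) in the first list and falls -1.95 (Pde4d) in the third.

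Genes most like each member were found from log2(value + 1) after each group mean was removed, over 12 libraries and 12673 other genes with a mean of at least 50. These Pearson r are descriptions over libraries that share tissue makeup. Gucy1a1 was most like Myh11 (r = 0.989), Flna (0.982) and Plcb4 (0.967), and Gucy1b1 most like Lmod1 (0.986), Fbxo30 (0.974) and Fgf1 (0.962). Pde5a was most like Tmem252 (0.958), Thsd4 (0.947) and Dmd (0.946), and Pde3a most like Itga9 (0.936), Pi15 (0.935) and Svil (0.933). Among the genes most like Prkg1 were Arcn1 (0.989) and Ddx6 (0.988). The closest genes to Npr3 were Galnt1 (0.946), Mtdh (0.946) and Kdsr (0.945). Nos3 and Npr1 had looser matches, Nos3 with Ppp1r3d (0.872), Kbtbd7 (0.869) and Zfp131 (0.834), and Npr1 with Stx1a (0.845), Rbm14 (0.813) and Tnfrsf25 (0.81).

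Reads of overlapping genes on opposite strands cannot be told apart here, since no strand setting was given. In GENCODE M21 the exons of Nos3 overlap those of Atg9b on the other strand over 294 bases, and Atg9b was at 20.3 to 67.4 in cPTAA and 35.7 to 79.2 in sham. The opposite-strand transcripts that overlap Nos3, Pde5a, Pde3a, Npr1 and Npr3 besides it were each listed at no more than 39.6.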

How the data were processed

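RNA was measured in 7 cPTAA and 5 sham libraries, grouped by sample title. The submitters' processing notes name the genome build GRCm39 and the tools StringTie, featureCounts 1.5.0-p3 and HISAT2 2.0.5, per the labels; their roles, the strand setting and the scaling are not stated there. What the authors deposited is 1 signal value for each gene and library, at least 0, called normalised read count here. Checked on the values, the deposited signal is whole reads divided by 1 factor per library: 100% of values were whole within 0.02 reads, and 1 read was worth 0.863 to 1.16 units.

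As these are not raw counts, log2(value + 1) was fitted in limma-trend (limma 3.58.1 under R 4.3.3). The 21415 genes that reached 1 in 5 or more libraries were tested and adjusted together. Relative fits subtracted the mean log2 level of a marker list from each library. edgeR 4.0.16 and DESeq2 1.42.0 ran on the recovered reads as alternatives; edgeR called 2622 genes higher and 2261 lower. The 2 ratios used exact permutation tests. Calculations were tested on simulated data.

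Members and lists were chosen with earlier results of these data known. Named genes are the 8 members, called genes of the 4 pathway lists, 11 fixed pathway genes and 6 fixed markers, and the 3 genes most like each member, 1 of which is not reported here. Other genes were named after their values were seen. Lengths and overlaps came from GENCODE M21 and promoters from RefSeq GRCm38.p6, another build than GRCm39, so no other coordinates are printed. Promoter windows matched 6 of the 8 members.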

Additional observations from a re-analysis of the deposited data

How the results depend on the processing

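Across 22 alternatives for each member, all 8 log2 fold changes kept their direction. Library totals as the only scaling moved the median of all genes by 0.12 and raised the share of rises among called genes from 53.7% to 64.7%; Nos3 was then at -0.45 and Gucy1a1 at -0.76, no longer called, and Pde1a at 0.050. Gucy1a1 was also lost with TMM under limma (-0.86), edgeR (-0.74), DESeq2 (-0.72) and no filter (-0.88). When the brown adipocyte score was a covariate, the members that rose and fell numbered 0 and 0 and all genes 489 and 218. Nos3, Gucy1a1, Gucy1b1, Pde5a, Pde3a, Npr1 and Npr3 were then at -0.20, -0.33, -0.33, -1.20, -0.91, -0.70 and 1.05, and Nos2, Gucy1a2, Acta2 and Ucp1 turned to 0.10, -0.62, 0.58 and 2.66. Npr2 turned to -0.088 in voom and to -0.14 when cPTAA 6, 7 and 9 and sham 8 were absent. Leaving out single libraries it ran from -0.075 (sham 1) to 0.15 (sham 11), and was -0.0065, -0.011 and -0.032 when cPTAA 6, cPTAA 9 or sham 5 was absent. Gucy1a2 ran from -0.059 (sham 8 absent) to 0.53 (cPTAA 9 absent). The causes were not tested.

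Relative to smooth muscle markers, leaving out cPTAA 6, 7 and 9 and sham 8 gave 0.048 for Gucy1a1, 0.82 for Prkg1, 0.16 for Pde5a and 0.015 for Pde3a, and leaving out cPTAA 9 gave 0.036 for Gucy1a1 and 0.015 for Gucy1b1. Relative to endothelial markers the former gave 0.18 for Prkg1 and -0.48 for Pde5a. The Gucy1a1 to Gucy1b1 log2 ratio differed by 0.071 in the libraries other than those 4, by 0.059 without cPTAA 6 and by 0.021 without cPTAA 9.

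Leaving out each library in turn gave -0.67 to -0.47 for Nos3, -1.05 to -0.70 for Gucy1a1, -0.95 to -0.70 for Gucy1b1, -0.56 to -0.30 for Prkg1, -1.10 to -0.89 for Pde5a, -1.10 to -0.91 for Pde3a, -1.05 to -0.84 for Npr1 and 1.87 to 2.30 for Npr3. Relative to smooth muscle markers Gucy1a1 ran from -0.17 to 0.036 and Gucy1b1 from -0.14 to 0.015. Relative to endothelial markers Pde3a ran from -0.85 to -0.65 and Npr1 from -0.80 to -0.57. The Gucy1a1 to Gucy1b1 log2 ratio ran from -0.097 to 0.059 and the Npr3 to Npr1 log2 ratio from 2.80 to 3.25. Members that fell numbered 4 to 6, and all genes that rose and fell 2213 to 3156 and 1675 to 2818. Voom called 8 rises and 4 falls in nitric oxide synthesis, against 4 and 2. It also called more of all genes, 3406 rises and 3552 falls of 15839, against 2754 and 2374 of 21415 by limma. Of 777 values for 36 other genes, 725 kept their direction and their side of the threshold, 37 lost a call, 3 gained one and 12 turned. No paired analysis was possible because the groups share no replicate number.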

Other observations

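Within groups, the members did not all vary together over the 12 libraries. After each group mean was removed, Gucy1a1 and Gucy1b1 had a Pearson r of 0.92, Pde5a and Pde3a of 0.91, and Prkg1 and Pde5a of 0.88. Nos3 and Npr1 had an r of 0.74 with each other, and of no more than 0.37 with any of the other 6 genes. Npr3 had an r of 0.68 with Prkg1 and of -0.05 with Npr1. These values describe libraries that share tissue makeup, and no test was made of them.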
